A study of Mus musculus and Homo sapiens with 11 samples.

Results

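Milk genes and prolactin signalling genes were examined in cultured mouse mammary tumour cells of the line MMTV-ErbB2. The members were 10 genes taken by symbol from the 24062 genes of the table, and all 10 were listed there. They are the casein genes Csn1s1, Csn2 and Csn3, the whey protein genes Wap and Lalba, the milk fat globule genes Btn1a1 and Mfge8, the prolactin receptor gene Prlr, and the transcription factor genes Stat5a and Stat5b. Polyadenylated RNA was sequenced from 3 libraries of the brain metastatic derivative, labelled BrM 2a and called BrM here, and 3 of the parental line, called Par. Both groups carry the tumour model's transgene, in which the mouse mammary tumour virus promoter, active in mammary epithelium, drives ErbB2, the receptor tyrosine kinase HER2. BrM is 1 named derivative of 1 line, so its differences from Par cannot be told apart from those of that derivative alone. Another 5 libraries of the series, from a human line, were not analysed here.

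In the mammary gland, prolactin binds its receptor on secretory epithelial cells, the receptor-bound kinase JAK2 phosphorylates STAT5, and STAT5 dimers enter the nucleus and bind milk protein genes. Together with glucocorticoids and insulin this drives the synthesis of caseins and whey proteins by alveolar cells late in pregnancy and in lactation. Feedback inhibitors of the SOCS family, themselves induced by cytokine signalling, limit the response. The growth protocol names serum-supplemented DMEM or RPMI media, does not say which library had which, and names no added prolactin, glucocorticoid or insulin. The labels also name a pair of library kits without assigning them, so a kit or medium that differed between the groups cannot be told apart from the derivative.

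STAT5 binds the palindrome TTCNNNGAA, which reads the same on both strands. The promoter stretches below are shown because they are the places where those letters stand just before the start of a member: a pair of casein genes, 1 without a read and 1 near the floor, and the receptor gene with the largest fold of any called member. Each runs 5′ to 3′ on the gene's own strand, from 150 to 51 bases before a RefSeq start on GRCm38.p6, with TTCNNNGAA in capitals.
Csn2 promoter, chr5:87699476-87699575, minus strand: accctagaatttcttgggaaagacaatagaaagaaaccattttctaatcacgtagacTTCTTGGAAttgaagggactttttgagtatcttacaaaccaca
Csn1s1 promoter, chr5:87666058-87666157, plus strand: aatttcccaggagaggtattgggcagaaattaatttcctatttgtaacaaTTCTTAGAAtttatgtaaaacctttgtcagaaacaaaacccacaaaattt
Prlr promoter, the second of 3 listed starts, chr15:10223756-10223855, plus strand: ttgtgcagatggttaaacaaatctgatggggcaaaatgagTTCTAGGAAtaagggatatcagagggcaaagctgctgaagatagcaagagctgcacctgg
Of the 8 members in the RefSeq promoter table, these 3 held the palindrome within 250 bases before a start, beginning at position -93 in Csn2, -100 in Csn1s1 and -110 in Prlr. Mfge8, Wap, Lalba, Stat5a and Stat5b did not hold it in that window. Among all 32851 promoters of that length in the table, 7.02% held it, and counted by gene 8.13% of 27025 held it before at least 1 of their starts. A match is a description of the letters and not of binding.

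Reads assigned to genes numbered 29877087 to 39106969 per library in BrM and 39304974 to 46683735 in Par. Values are read counts that the authors divided by 1 factor per library, and 1 read is worth 0.931 to 1.22 in BrM libraries and 0.824 to 1.02 in Par libraries. BrM replicate 1 stood apart: it differed from BrM replicate 2 by 2-fold or more at 3614 tested genes, against 220 such genes for BrM replicates 2 and 3 and 976 to 1683 for pairs of Par libraries. Nothing in the labels ties a group's libraries to separate cultures, and p-values therefore reflect only how far these libraries differ, which may be technical. Mammary epithelial identity was checked with 10 markers, of which 9 were above the filter of a mean value of 10. Their summed level was 214958 to 261522 in BrM and 146848 to 156114 in Par. Of the 9, 5 rose, 1 fell and 3 did not pass, beside 12.2% higher and 15.8% lower over all genes tested. Keratins 8 and 18, the filaments of simple epithelia, were 2.52-fold and 2.27-fold higher in BrM (limma adjusted p = 0.0066 and 0.00186). Cdh1, the E-cadherin of epithelial junctions, named after its values were seen, was 1.55-fold lower (15921 ± 666 in BrM against 24720 ± 1826 in Par, adjusted p = 0.0113). The number that fell was 2 without BrM replicate 1, and 0 without BrM replicate 2, BrM replicate 3 or Par replicate 2.

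In BrM the prolactin receptor gene was far lower, both STAT5 genes were modestly lower, the fat globule gene Mfge8 was lower, and the fat globule gene Btn1a1 was higher. Csn2, Wap and Lalba had no read in either group, Csn1s1 had reads in Par alone, and Csn3 was present in all 6 libraries. Of the 10 members, 7 reached a mean value of at least 10 and were tested with limma on log2 of the value plus 1, and 5 of the 7 passed an adjusted p of 0.05, 1 higher and 4 lower in BrM. Across all 13821 genes tested, 28.1% passed, 12.2% higher and 15.8% lower, so passing was common among genes at large. Upper quartile scaling turned that split round, with 2228 genes higher and 1819 lower, against 1691 higher and 2190 lower; the 4 members called under it kept their directions. On recovered reads, edgeR called 5 members beside 27.2% of all genes, and DESeq2 6 beside 36.7%. Csn1s1 entered the test only through a pair of Par libraries. Leaving out 1 library, 2 members passed without BrM replicate 2, without Par replicate 1 or without Par replicate 2, and these were Prlr and Btn1a1 each time.

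**Figure D1:**
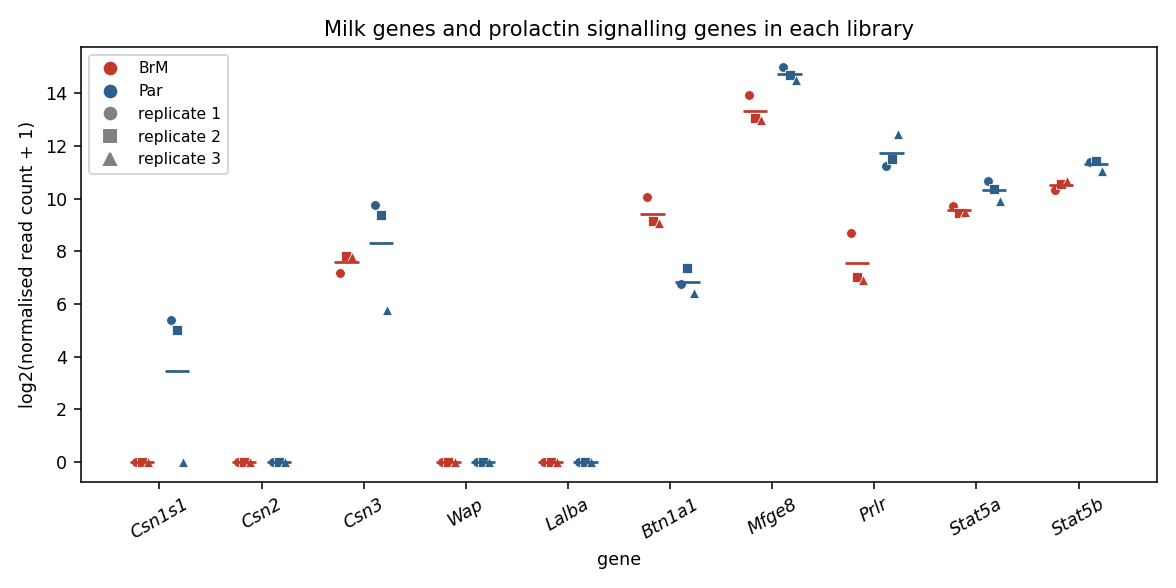
Each library's log2 of the normalised read count plus 1 for the 10 genes, with BrM left of Par, marker shapes for replicates and a bar at each group's mean. Csn2, Wap and Lalba lie at 0 in all 6 libraries; the BrM and Par points of Btn1a1, Mfge8, Prlr, Stat5a and Stat5b do not overlap, and Csn3 and Csn1s1 are low in Par replicate 3.

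Among the caseins, which form the protein micelles of milk, Csn2 (beta-casein) had no read in any library. The whey acidic protein gene Wap and the alpha-lactalbumin gene Lalba, whose product is the regulatory subunit of lactose synthase, had none either. A count of 0 allows up to 3 reads per library, or 0.0767 to 0.1 CPM in BrM libraries and 0.0643 to 0.0763 in Par libraries. CPM is counts scaled to the reads assigned to genes, and the limit covers counting error only. These are the defining transcripts of lactating alveolar cells, and at this depth they were not detectable in BrM or in Par.

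Csn1s1 (alpha-s1-casein) had no read in any BrM library, against values of 40.7, 31.3 and 0 in Par replicates 1, 2 and 3. The Par signal therefore came from 2 of 3 libraries, and the groups overlapped at 0. Taking 3 reads as the most that the pooled BrM libraries could hide, BrM was at least 23.5-fold lower than Par, which held 78 reads. That bound on pooled reads covers counting error only and leaves out the spread between Par libraries. The gene did not pass the test (log2 fold change -3.47, SE 1.42, limma adjusted p = 0.118). Without Par replicate 3 it passed (adjusted p = 0.0025, log2 fold change -5.20), and it did not pass in the fits that left out 1 of the other libraries (adjusted p 0.129 to 0.314).

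Csn3, the kappa-casein that coats the micelle surface, was the casein with the most reads. It stood at 144, 226.7 and 218.9 in BrM replicates 1, 2 and 3 and at 868.1, 666.4 and 53.8 in Par replicates 1, 2 and 3. BrM was uniform, whereas Par replicate 3 was lower than every BrM library and the other Par libraries were higher than all of them. Group means were 196.5 ± 45.6 in BrM and 529.4 ± 424 in Par (SD, n = 3 each; log2 fold change -0.71, SE 1.02, limma adjusted p = 0.642). Par replicate 3 decided the outcome: without it the difference was -1.98 and passed (adjusted p = 0.0128), while without Par replicate 1 it was 0.02 (adjusted p = 0.994). On the minus strand of Csn3 lies 1700066N21Rik, which had values of 0 in every BrM library and 0 to 2.47 in Par. Whether reads over both genes were given to Csn3 was not tested. Csn1s1, Csn2, Csn1s2a, Csn1s2b and Csn3 lie within 266 kb of chromosome 5 on GRCm38, and a library without Csn1s1 reads could still hold Csn3, as all BrM libraries and Par replicate 3 did. The remaining genes of that row, Csn1s2a and Csn1s2b, had no read in BrM and 1 in Par between them.

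Btn1a1 encodes butyrophilin, the membrane protein that anchors the coat of the secreted milk fat globule (chr13:23456992-23465901, minus strand). Its values were 1074, 572.9 and 537.4 in BrM replicates 1, 2 and 3, against 106.9, 164.7 and 84 in Par replicates 1, 2 and 3. Every BrM library was above every Par library, and BrM replicate 1 was the highest. The rise was 6.02-fold (log2 fold change 2.59, SE 0.38, limma adjusted p = 0.00414), and it passed in all 19 alternatives (log2 fold change 2.07 to 2.85). Among the 5 called members it alone rose.

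Mfge8 encodes lactadherin, a secreted protein of the fat globule that also bridges phosphatidylserine on dying cells to alpha-v integrins (chr7:79133768-79149060, minus strand). Its values were 15615, 8535 and 8033 in BrM replicates 1, 2 and 3, against 32719, 26757 and 23013 in Par replicates 1, 2 and 3. The groups did not overlap, and BrM replicate 1 lay nearest to Par. The fall was 2.66-fold (log2 fold change -1.41, SE 0.29, limma adjusted p = 0.0134), and the call was lost without BrM replicate 2 (adjusted p = 0.0529), Par replicate 1 (0.0544) or Par replicate 2 (0.0528). Its integrin partners and its paralogue Edil3 made 4 genes, all tested. Of these, 1 fell and 3 did not pass, beside 15.8% of all tested genes called lower. The one that fell was the integrin subunit gene Itgb3, 4.03-fold (77 ± 24.6 in BrM against 316.5 ± 115.4 in Par, limma adjusted p = 0.00997). Without BrM replicate 1 the number that fell was 2. Macrophages also express Mfge8 in the mouse; of 8 macrophage markers C1qa and C1qb were at 0, and the summed level of the 7 listed in the table was 446.1 to 2996 in BrM and 222.8 to 949.5 in Par. Of the 3 tested, 1 rose and 2 did not pass, beside 12.2% of all tested genes called higher. The one that rose was Csf1r, a growth factor receptor gene of macrophages, at 318.6, 254.4 and 230 in BrM replicates 1, 2 and 3, against 2.04, 1.65 and 18.9 in Par replicates 1, 2 and 3. It was 49.1-fold higher (limma adjusted p = 0.0037), or 93.7-fold without Par replicate 3. Cd68, at 2669.6, made up most of the sum in BrM replicate 1. The other markers did not follow Csf1r: Ptprc had 11 reads in BrM and 3 in Par, and Tyrobp 1 in each group. Lyz2 had 2 reads in BrM and 362 in Par and did not pass (limma adjusted p = 0.0935). Adgre1 was not listed. The part of macrophages in the Mfge8 difference was not tested.

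Prlr, the prolactin receptor (chr15:10177238-10349180, plus strand), was the called member with the largest fold. Its values were 417.5, 130.1 and 121.1 in BrM replicates 1, 2 and 3, against 2415, 2882 and 5628 in Par replicates 1, 2 and 3. Every Par library was above every BrM library, BrM replicate 1 was the highest of its group and Par replicate 3 the highest of all. The fall was 18-fold (log2 fold change -4.17, SE 0.55, limma adjusted p = 0.0029), and it passed in all 19 alternatives, with a log2 fold change of -4.75 to -3.49. Of the 13821 genes tested, 639 were at least as far from 0, or 4.62%. The fold was largest without BrM replicate 1 (log2 fold change -4.75, adjusted p = 0.000268). The table counts reads per gene, so the long and short receptor forms cannot be told apart. Gm21973 overlaps Prlr on the same strand, and whether it shares reads with Prlr was not tested. In a bulk library, fewer cells that carry a transcript and less of it per cell cannot be told apart either.

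Stat5a (chr11:100859351-100885169, plus strand) and Stat5b (chr11:100780731-100850724, minus strand) lie head to head, 8626 bases apart. Stat5a had values of 837.4, 704.9 and 725.5 in BrM replicates 1, 2 and 3 and 1632, 1332 and 965 in Par replicates 1, 2 and 3. For Stat5b they were 1276, 1490.2 and 1617 in BrM replicates 1, 2 and 3 and 2699, 2798 and 2151 in Par replicates 1, 2 and 3. In neither gene did the groups overlap, and Par replicate 3 was the lowest of its group in both. Across all tested genes the groups did not overlap for 48.0%, so the separation of 5 of 7 members has to be read beside that share. Stat5a fell 1.7-fold (log2 fold change -0.76, SE 0.22, limma adjusted p = 0.0457) and Stat5b 1.74-fold (-0.80, SE 0.16, adjusted p = 0.014).

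These are the small folds among the called members, and the Stat5a call lies close to the threshold. Stat5a lost it without BrM replicate 2 (adjusted p = 0.14), BrM replicate 3 (0.131), Par replicate 1 (0.129) or Par replicate 2 (0.138). Stat5b lost its call without BrM replicate 2 (0.0525), Par replicate 1 (0.0553) or Par replicate 2 (0.0617). The ratio of Stat5a to Stat5b values was 0.656, 0.473 and 0.449 in BrM and 0.605, 0.476 and 0.449 in Par, in replicate order, so its ranges overlapped. Its log2 difference was 0.04 (exact permutation test, two-sided, p = 0.8, with 0.1 the smallest p that 3 against 3 allows). The 3′ end of Stat5a overlaps Stat3 on the other strand by 72 bases, and whether reads were counted by strand is not given in the sources used here.

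Per kilobase of annotated exon, the order of levels in BrM was Mfge8 (2285 ± 903.2 normalised reads per kb), Stat5b (263.7 ± 31.1), Btn1a1 (176.8 ± 72.9), Stat5a (106 ± 9.99), Csn3 (47.3 ± 11) and Prlr (14.5 ± 11). In Par it was Mfge8 (5858 ± 1043), Stat5b (460.2 ± 62.9), Prlr (237.4 ± 113.2), Stat5a (183.6 ± 46.9), Csn3 (127.5 ± 102.1), Btn1a1 (28.8 ± 10.1) and Csn1s1 (3.84 ± 3.41; SD, n = 3 each). Prlr was number 6 in BrM and number 3 in Par, and Btn1a1 number 3 in BrM and number 6 in Par. Ranges of neighbours overlapped between Stat5b and Btn1a1 in BrM, and in Par between Prlr and Stat5a, Stat5a and Csn3, and Csn3 and Btn1a1. These lengths are the union of all annotated exons, 15.34 kb for Prlr, and understate a gene whose long forms are little used.

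The genes listed for the path from prolactin to STAT5 include the ligand gene Prl and the receptor genes Ghr, Epor and Erbb4. They are therefore not all downstream of Prlr. Of these 14 genes, none of them a member, 12 were tested: 2 rose, 1 fell and 9 did not pass. The calls stand beside 12.2% higher and 15.8% lower over all genes tested. Their median log2 fold change was 0.03, against -0.05 over all genes tested. Jak2, the kinase that the prolactin receptor uses, was at 8312, 8214 and 8489 in BrM replicates 1, 2 and 3, against 2232, 2658 and 2767 in Par replicates 1, 2 and 3. All BrM libraries were above all Par libraries and lay close together. Jak2 rose 3.28-fold (log2 fold change 1.71, SE 0.13, limma adjusted p = 0.000356) and passed in all 19 alternatives. The feedback inhibitor gene Socs2, a target of STAT5 in growth hormone and prolactin signalling, was at 7203, 7076 and 7162 in BrM replicates 1, 2 and 3, against 2059.7, 1436 and 1904 in Par replicates 1, 2 and 3. All BrM values again lay close together and above all Par values, 4.02-fold higher (log2 fold change 2.01, SE 0.16, limma adjusted p = 0.00047) and called in all 19 alternatives. So Prlr and its transcription factors were lower in the same libraries in which Jak2 and Socs2 were higher.

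Socs3, an inhibitor induced above all by STAT3, was at 1388, 452.4 and 446.1 in BrM replicates 1, 2 and 3, against 2083, 2852 and 2752 in Par replicates 1, 2 and 3. It fell 3.87-fold (limma adjusted p = 0.0216) without overlap between the groups. The call held without BrM replicate 1 and was lost without any other 1 library (adjusted p 0.0566 to 0.0823). Cish, another STAT5-induced inhibitor, was named after its values were seen. It stood at 1309.8, 316.6 and 366.9 in BrM replicates 1, 2 and 3, against 1636, 1317 and 1197 in Par replicates 1, 2 and 3, and did not pass (adjusted p = 0.106). Thus BrM replicate 1 lay within the Par range for Cish, and the other BrM libraries below it. Prl itself had 1 read in BrM and 2 in Par. The growth hormone receptor gene Ghr, a relative of Prlr that also signals through JAK2, was named likewise: it was at 4520.2, 1177 and 1156 in BrM replicates 1, 2 and 3 and at 1332 to 2043 in Par (adjusted p = 0.881). Without BrM replicate 1, the number of this list's genes that fell was 2. Without any other 1 library it was 0, and 2 rose in each of these fits.

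**Figure D2:**
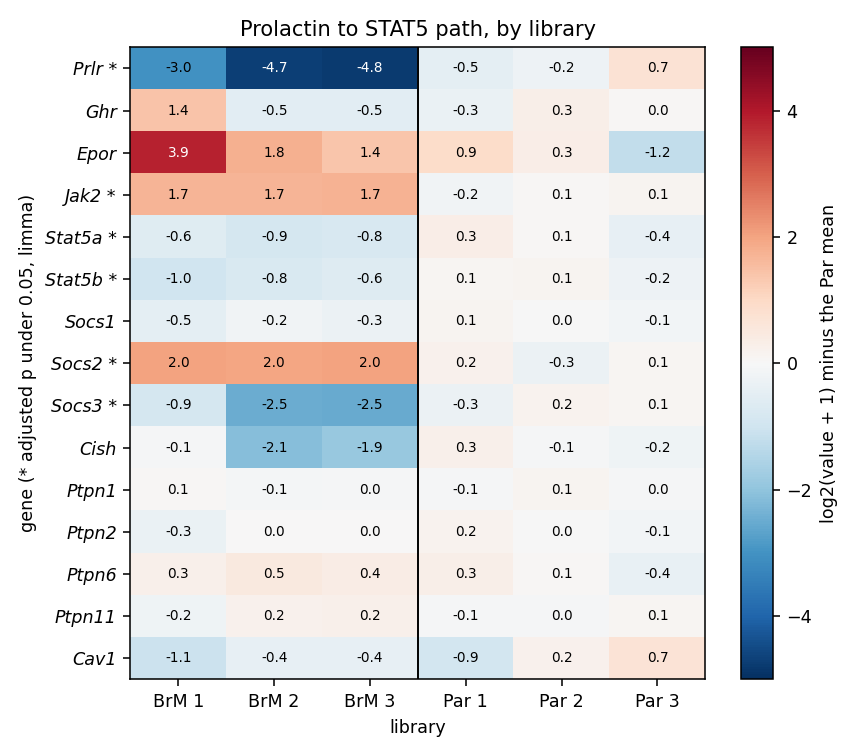
Log2 of the value plus 1 minus the Par mean for 15 genes of the prolactin to STAT5 path (rows) in the 3 BrM libraries, left, and the 3 Par libraries, right; red is higher and blue lower than the Par mean, and asterisks mark genes that passed limma's test. Jak2 and Socs2 are red and even across BrM, Prlr is blue there, and Ghr, Epor, Socs3 and Cish differ between BrM replicate 1 and BrM replicates 2 and 3.

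Known STAT5 targets and regulators of alveolar development went both ways. Of 14 listed, 13 were tested: 3 rose, 5 fell and 5 did not pass (median log2 fold change -0.77). Over all genes tested, 12.2% were called higher and 15.8% lower. Besides Socs2, the survival kinase gene Akt1 rose 2.12-fold (17729 ± 2340.2 in BrM against 8309 ± 83.8 in Par, limma adjusted p = 0.00247). Nfib, a transcription factor that acts with STAT5 at milk genes, fell 1.92-fold (5519 ± 330.8 in BrM against 10615 ± 673.1 in Par, adjusted p = 0.00225), and the luminal factor Gata3 fell 1.8-fold (2249 ± 187.7 in BrM against 4043 ± 185.2 in Par, adjusted p = 0.00387). Elf5, the alveolar transcription factor downstream of the prolactin receptor, was named after its values were seen and did not pass: it was at 203.9, 469.6 and 468.4 in BrM replicates 1, 2 and 3, against 683.9, 676.2 and 585.4 in Par replicates 1, 2 and 3 (adjusted p = 0.118). All BrM values of Elf5 were under all Par values, with BrM replicate 1 the lowest. The number of these genes that rose was 2 without BrM replicate 2 or without Par replicate 3.

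Of 21 other milk and secretory genes, 12 were tested: 0 rose, 4 fell and 8 did not pass (median log2 fold change -2.10); the 9 under the filter included Csn1s2a and Glycam1, which had no read at all. The 4 of 12 called stand beside 28.1% of all tested genes. Aqp5, a water channel gene, and Pthlh, which encodes parathyroid hormone-related protein, had values 2.35-fold and 1.75-fold higher and did not pass (limma adjusted p = 0.24 and 0.314, named after their values were seen). Xdh, the xanthine oxidoreductase that binds butyrophilin in the fat globule coat, was at 7336, 3382 and 3503 in BrM replicates 1, 2 and 3, against 22207, 11878 and 17203 in Par replicates 1, 2 and 3. It fell 3.74-fold (limma adjusted p = 0.0112) where Btn1a1, its partner, rose. Lpl, a lipase that frees fatty acids for milk fat, fell 23.3-fold (73.8 ± 57.2 in BrM against 1641 ± 845 in Par, adjusted p = 0.00428). Muc15, a mucin of the globule coat, fell 14.9-fold (8.48 ± 3.39 in BrM against 168.9 ± 143.7 in Par, adjusted p = 0.00611), or 9.51-fold without Par replicate 3. Cidea, a lipid droplet protein gene, fell 22.8-fold from a low level (1.63 ± 2.82 in BrM against 52 ± 47.6 in Par, adjusted p = 0.0144).

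Cidea rested on 4 BrM reads and lost its call without BrM replicate 2 (adjusted p = 0.0524) or BrM replicate 3 (0.0505). Its fold was 41.1 without BrM replicate 1 and 14.1 without Par replicate 1. Lpl and Cidea are also expressed by fat cells. Of 6 adipocyte markers, Lep was at 0 in every library, and Adipoq, Plin1, Cfd and Cidec were under the filter. Their summed level, mostly Fabp4, was 10.2 to 14.3 in BrM and 51 to 788.7 in Par. Lactoferrin, Ltf, an iron-binding milk protein named after its values were seen, was at 130969.6, 2480.1 and 2316 in BrM replicates 1, 2 and 3 and 56992, 39111 and 40008 in Par replicates 1, 2 and 3 (adjusted p = 0.305). BrM replicate 1 was thus above every Par library for Ltf and the other BrM libraries far below. The number of genes on this list that fell was 8 without BrM replicate 1, and 1 then rose.

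**Figure D3:**
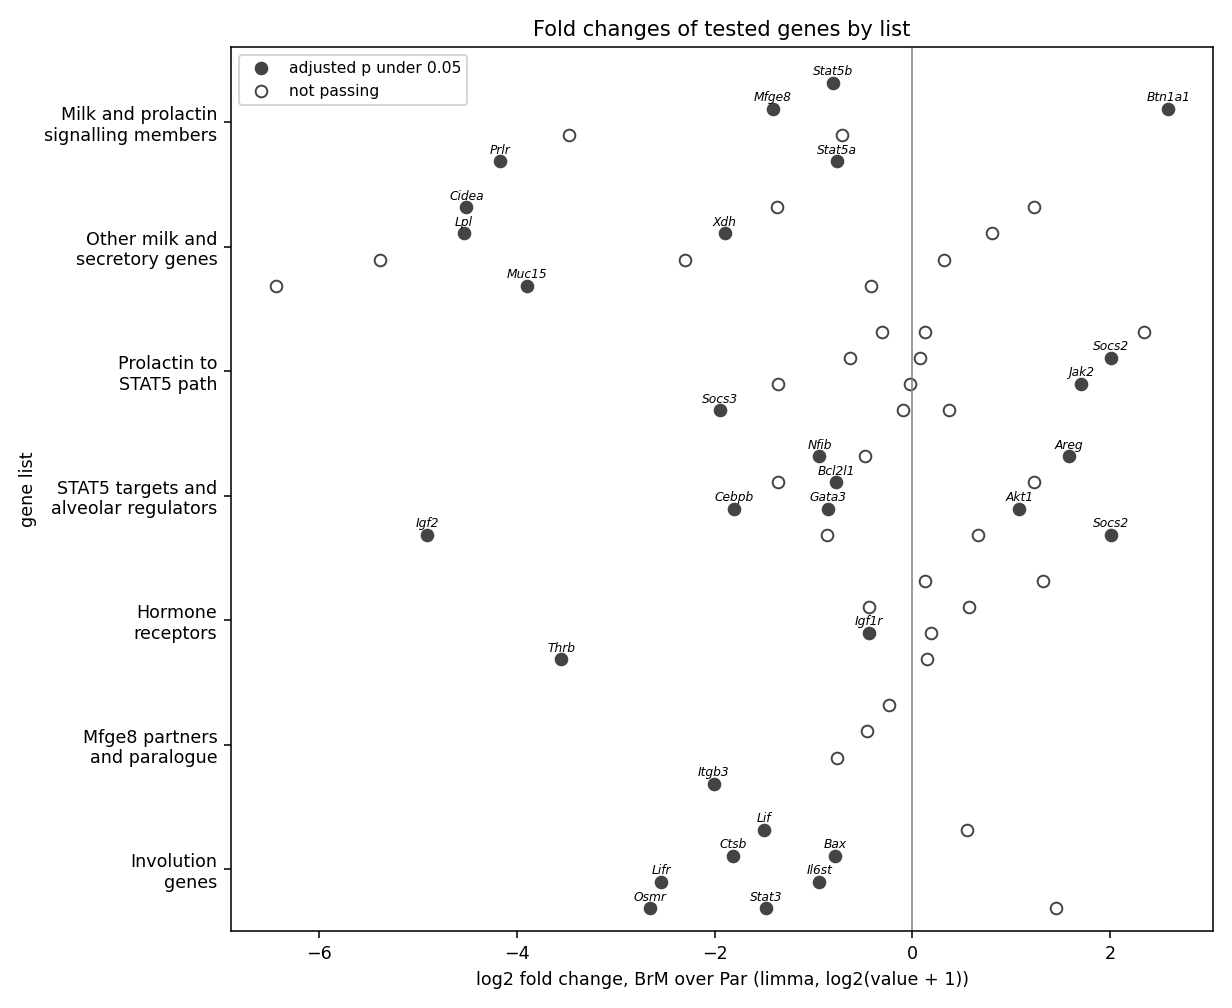
Log2 fold changes of BrM over Par for the tested genes of 7 lists, each list on its own band with points staggered for legibility; filled and named points passed limma's test at an adjusted p of 0.05, open points did not. Named points of the other milk and secretory genes lie left of 0, and those of the prolactin to STAT5 path lie on both sides.

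Of 10 receptor genes for lactogenic and ovarian hormones, 8 were tested: 0 rose, 2 fell and 6 did not pass (median log2 fold change 0.14). The 2 of 8 called stand beside 28.1% of all tested genes. The thyroid hormone receptor gene Thrb fell 11.7-fold at a low level (3.47 ± 4.49 in BrM against 36.8 ± 16.8 in Par, limma adjusted p = 0.0253), and the IGF receptor gene Igf1r fell 1.35-fold (3547 ± 330.6 in BrM against 4794 ± 244.7 in Par, adjusted p = 0.0406). Without BrM replicate 1 the number that fell was 3 and 1 rose. Without any other 1 library none fell, and Igf1r then had adjusted p-values of 0.0751 to 0.135 and Thrb 0.0517 to 0.0927. Thrb was 21-fold lower without BrM replicate 1 and 6.77-fold lower without BrM replicate 2. The glucocorticoid receptor gene Nr3c1 (3604 ± 91.2 in BrM, 3263 ± 448.8 in Par, adjusted p = 0.458) and the insulin receptor gene Insr (3059 ± 268.5 in BrM, 2676 ± 61.5 in Par, adjusted p = 0.289), both named after their values were seen, did not pass. The progesterone receptor gene Pgr had 2 reads in BrM and 11 in Par.

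Markers of the mammary cell types moved beside these genes. Their counts of calls stand beside 12.2% higher and 15.8% lower over all genes tested. Of 8 alveolar markers, Csn2, Wap and Lalba were at 0, and the summed level of all 8 was 2689 to 9068 in BrM and 24985 to 43895 in Par. Most of that sum was Cd14, a lipopolysaccharide co-receptor gene, at 1959 to 8653 in BrM and 21439 to 39956 in Par, so the range describes mainly that gene. Kit, a receptor of luminal progenitors on that list, had 3 reads in BrM and 5581 in Par, a ratio of scaled reads of 1679 for Par over BrM (exact 95% interval 574.2 to 8144, for counting error alone). Of 6 hormone-sensing luminal markers, which include Prlr, 5 were tested, 2 rose, 2 fell and 1 did not pass. Foxa1 rose 15-fold and Areg 3-fold (limma adjusted p = 0.00136 and 0.0256). Foxa1 reached the filter only through BrM, with 27 reads in Par. Prom1 fell 170.9-fold (adjusted p = 0.000146), beside the fall of Prlr. The summed level of all 6 was 5513 to 10538 in BrM and 8122 to 9929 in Par. Most of the BrM sum was Areg, at 4704 to 9639.7, so the sums hide opposite changes. The number that rose was 1 without BrM replicate 2 or without Par replicate 3. Areg lost its call in these fits (limma adjusted p = 0.0563 and 0.0855). It also lost it without Par replicate 2 (0.0929), although the number that rose stayed at 2. Myoepithelial markers summed to 2887 to 5238 in BrM and 10873 to 14249 in Par over 8 genes, mostly Krt14 (4075 ± 1629 in BrM against 9206 ± 1777 in Par). Of the 6 tested, 1 rose, 3 fell and 2 did not pass. Besides Krt14, Acta2 fell 455.5-fold (3.2 ± 1.53 in BrM against 2013 ± 959.3 in Par, limma adjusted p = 0.000156). Trp63 fell 223.6-fold (10.1 ± 13.4 in BrM against 1573 ± 662.5 in Par, adjusted p = 0.00151). Both kept their calls in all 19 alternatives, and Acta2 had 9 reads in BrM. The one that rose was Krt5, a basal keratin gene, 5.41-fold (26.3 ± 15.7 in BrM against 3.73 ± 1.7 in Par, limma adjusted p = 0.02). It reached the filter only through BrM, with 12 reads in Par. None rose without BrM replicate 2, Par replicate 1 or Par replicate 2. For fibroblast markers the sum over 7 genes was 208.5 to 994.8 in BrM and 1565 to 5893 in Par. Most of the Par sum was Pdgfrb, at 1002 to 3683. Of the 5 tested, 0 rose, 3 fell and 2 did not pass. Those that fell were Dcn (0 reads in BrM, 1542 in Par, limma adjusted p = 0.000215), Pdgfrb (5 and 8249, 0.000329) and Col1a2 (1 and 207, 0.0201). Col1a2 lost its call without BrM replicate 2, BrM replicate 3 or Par replicate 1. The part of these cell types in the differences of Prlr, Mfge8 and the milk genes was not tested.

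Patterns most like those of the called members were sought over 11348 genes averaging 100 or more, by Pearson's r of log2 values over the 6 libraries. These are descriptions: the 6 points share the split into groups and the same libraries, and 26 genes had an r of 0.99 or more with Prlr alone. Cyp1b1, Chp1 and Timp3 were nearest to Prlr (r = 0.9994, 0.9988 and 0.9975). Cyp1b1, a cytochrome P450 gene, was at 631.1, 162.6 and 151.8 in BrM replicates 1, 2 and 3, against 7265, 10022 and 22784 in Par replicates 1, 2 and 3, the same order of libraries as Prlr. Mta1, Snx6 and Cnp were nearest to Btn1a1 (0.999, 0.9963 and 0.9962), and Gsdmd, Tfeb and Gsta3 to Mfge8 (0.999, 0.999 and 0.9986). Mppe1, Stc2 and Ctns were nearest to Stat5a (0.998, 0.9969 and 0.9969), and Tshz1, Smoc1 and Gmds to Stat5b (0.9971, 0.9968 and 0.9965). With each group's mean taken out, Crip2 was nearest to Prlr (0.9999), Ubxn7 to Btn1a1 (0.9992), Ralgps2 to Stat5a (0.9993) and Pald1 to Stat5b (0.9996). Crip2 was higher in BrM (3736, 1486 and 1379) than in Par (230, 267.7 and 457), so it shares with Prlr the order of libraries within groups and not the direction between them.

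**Figure D4:**
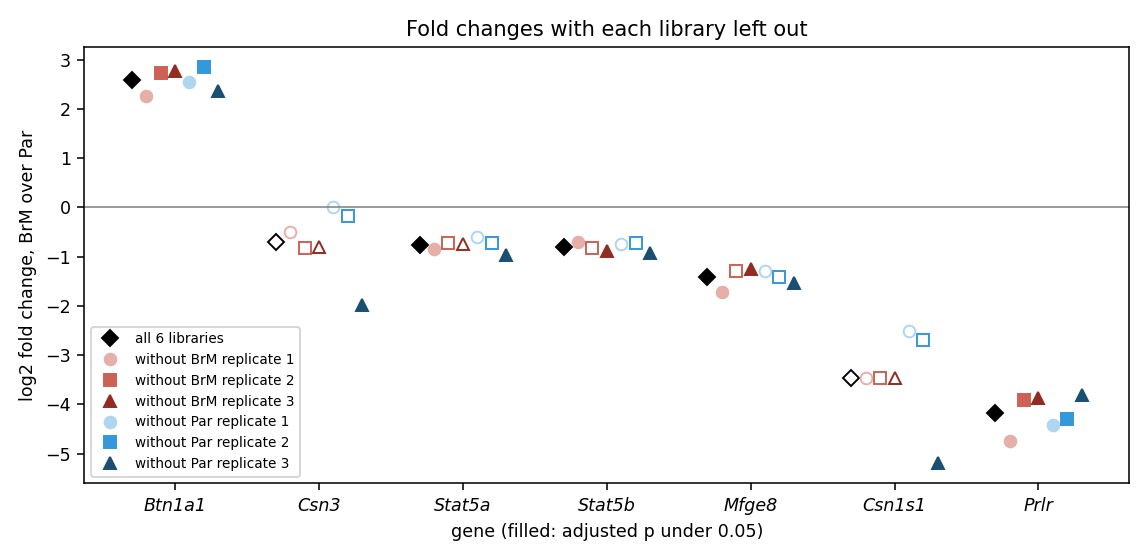
Log2 fold change of BrM over Par for the 7 tested members with all 6 libraries (diamonds) and with each library left out in turn; filled points passed limma's test at an adjusted p of 0.05. Btn1a1 and Prlr are filled throughout, Csn3 and Csn1s1 are filled only without Par replicate 3, and Stat5a, Stat5b and Mfge8 are filled in some fits.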

How the data were processed

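The deposited signal values are normalised read counts that the authors made by dividing each library's counts by 1 factor; per the submitters' processing notes STAR, HTSeq, GRCh38 and GRCm38 were used, without versions, and the tool behind the factors is not given in the sources used here. In each library 100% of values above 0 lay within 0.01 of a whole number of reads after division by the value of 1 read, and these reads were recovered. Replicate numbers are those of the table's columns; in each group 1 sample title has no number. Of 24062 genes, 4879 were at 0 throughout, and 27 symbols had become dates.

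With limma 3.58.1 (R 4.3.3), BrM was compared with Par by group alone, after taking log2 of values with 1 added and with an intensity trend, over 13821 genes with a mean of at least 10, two-sided, Benjamini-Hochberg adjusted at 0.05. Fold changes are on that scale. A gene low in 1 group can reach the filter through the other group alone. Krt5, Csf1r, Btn2a2 and Foxa1 did so through BrM. Through Par it was Thrb, Muc15, Cidea, Csn1s1, Kit, Fabp4, Lyz2, Acta2, Dcn, Pdgfrb and Col1a2. Alternatives were pseudocounts of 0.5 and 5, other filters and scalings, no trend, weights per library, a replicate block, a covariate separating numbered from unnumbered libraries, edgeR 4.0.16 and DESeq2 1.42.0 on recovered reads, and each library left out. edgeR called 3754 genes, 3655 of them shared with limma, and DESeq2 5074, 3847 of them shared. Averaging BrM replicates 2 and 3 was added after seeing the data. The methods were tested on simulated data.

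Members, lists, tests and alternatives were chosen with earlier results of these data known. By the rule for named genes, all members are described, with up to 4 called genes of smallest p per list; other genes are said to be named after their values were seen, apart from markers and genes given by reads alone. Positions and exon lengths came from GENCODE M21 on GRCm38, and promoters from RefSeq on GRCm38.p6. Proteins were not compared.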

Additional observations from a re-analysis of the deposited data

How the results depend on the processing

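Of the 7 tested members, Btn1a1 and Prlr kept direction and call in all 19 alternatives. Genes called numbered 3881, and 8485 with array weights, 2279 with BrM replicates 2 and 3 averaged, and 2191 to 6519 when 1 library was left out. Members called numbered 5, and 2 to 7 when 1 library was left out. Upper quartile scaling raised the median log2 fold change of all genes by 0.132 and turned the split of calls from 1691 higher and 2190 lower (43.6% higher) to 2228 and 1819 (55.1%). Stat5a lost its call there (-0.63, adjusted p = 0.0764), without a filter (-0.76, 0.0516), without an intensity trend (-0.76, 0.0591) and with BrM replicates 2 and 3 averaged (-0.73, 0.135). Csn1s1 gained one with array weights (-4.17, adjusted p = 0.00385) and DESeq2 (-6.97, 0.0278), and could not be tested at a filter of 50. Left out in turn, libraries gave log2 fold changes of -1.98 to 0.02 for Csn3, the only sign change among the members (without Par replicate 1), -5.20 to -2.51 for Csn1s1, -1.72 to -1.24 for Mfge8, -0.97 to -0.59 for Stat5a and -0.92 to -0.71 for Stat5b. The cause was not tested.

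The replicate block used the 4 numbered libraries and so dropped BrM and Par replicate 3. It called 2029 genes and gave Csn3 -2.07 (limma adjusted p = 0.0285), Csn1s1 -5.20 (0.00801), Stat5a -0.94 (0.103) and Stat5b -0.99 (0.0578). Deviations from the group means correlated at 0.3, -0.09 and 0.33 for the column numbers 1, 2 and 3. BrM replicates 1 and 3 correlated best with the Par library of the same number, and BrM replicate 2 with Par replicate 3 (0.31). Deviations within a group are not independent, and BrM replicates 2 and 3 were close to each other. These values therefore cannot decide whether libraries with the same number share a batch. Of 718 values for the 38 other genes that the naming rule takes, cell type markers included and not all described here, 660 kept call and direction, 58 lost the call and 0 reversed. Depth limits Csn1s1, Cidea, Kit, Acta2, Dcn, Pdgfrb, Col1a2 and the undetected milk genes.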

Other observations

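Mammary involution is the stage at which the gland regresses after weaning and STAT3 replaces STAT5 as the active factor. Of 9 involution genes, all tested, 0 rose, 7 fell and 2 did not pass (median log2 fold change -1.48), beside 12.2% higher and 15.8% lower over all genes tested, a split that upper quartile scaling turned round. The 2 that did not pass, Igfbp5 and Ctsl, had values 2.73-fold and 1.47-fold higher in BrM. Both were named after their values were seen (limma adjusted p = 0.151 and 0.106). The list as a whole was not tested. Stat3 stood at 5469.8, 3164 and 3449.6 in BrM replicates 1, 2 and 3, against 13368, 8950.1 and 10915 in Par replicates 1, 2 and 3, a 2.8-fold fall (limma adjusted p = 0.00735). Lif, the cytokine that activates STAT3 in the involuting gland, fell 2.83-fold (12173 ± 2882 in BrM against 34374 ± 7579.6 in Par, adjusted p = 0.0048). Its receptor gene Lifr fell 5.8-fold (64.4 ± 6.28 in BrM against 397.4 ± 159.2 in Par, adjusted p = 0.0029), and Osmr, the oncostatin M receptor gene, fell 6.26-fold (507.1 ± 238.5 in BrM against 2999 ± 469.5 in Par, adjusted p = 0.00227). The number that fell was 4 without BrM replicate 2, and without BrM replicate 1 it was 7 with 1 that rose. STAT3 and STAT5 genes were thus both lower in BrM.

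Among 5 relatives of butyrophilin only Btn2a2 was tested. It was at 269.8, 23.9 and 25.1 in BrM replicates 1, 2 and 3, against 4.07, 3.29 and 0.944 in Par replicates 1, 2 and 3 (limma adjusted p = 0.0279, lost without Par replicate 1, 2 or 3 at 0.0702 to 0.0886). Its fold was 16.1, and 7.31 without BrM replicate 1.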
